A study of Sinotaia aeruginosa with 24 samples.

Results

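Voltage-gated and potassium ion channels were represented by 75 gene clusters among the 233875 clusters of an assembled snail transcriptome, 19670 of which carried a Swiss-Prot match. A cluster was a member if its Swiss-Prot description named a sodium channel protein, the sodium leak channel, a voltage-gated or voltage-dependent calcium channel, a potassium channel of the voltage-gated, calcium-activated, inward rectifier or numbered subfamily kind, or a cyclic nucleotide-gated channel. No expression value entered the choice. The names are best Swiss-Prot matches and stand for a channel family, not for a proven orthologue, and clusters of near-identical sequence may share reads. Clusters of 1 product name may also be pieces of 1 gene.

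The snails carried the label Sinotaia aeruginosa, and the series title calls the species Bellamya aeruginosa. They were given algae every day with cadmium, with polystyrene microplastic particles or with both, beside controls labelled as not handled, and the series asked what the pollutants do together and apart. RNA was taken on day 42 from organs labelled liver, which in snails is the digestive gland, and brain. The 8 groups were control, cadmium, polystyrene and combined liver (replicates 1 to 3) and control, cadmium, polystyrene and combined brain (replicates 4 to 6), with 3 samples in each. Every exposed group was labelled as the medium concentration, the combined one for both agents, and the labels give neither its amount nor the strain, age or sex of the animals. Whether samples that share a group are separate animals is likewise not labelled, and p-values therefore reflect only how much these libraries vary, which may be technical.

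Voltage-gated sodium and calcium channels open when a cell membrane depolarizes and carry the inward currents of the action potential and of transmitter release. Potassium channels carry the outward current that ends the action potential, holds the resting potential and limits how often a neuron fires. In molluscs, whose large neurons served for much of the early work on membrane currents, these families are found in nerve and muscle, and several also serve secretion and volume control in other tissues.

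The libraries held between 13712265 and 17145998 expected counts each. Levels are in CPM, counts scaled to the effective size of each library, and are given as mean ± SD with n = 3 unless single samples are listed in the order of their replicate numbers. Differences are log2 fold changes with their standard errors, and calls were made at an adjusted p under 0.05 with edgeR's quasi-likelihood test, adjusted by Benjamini-Hochberg over every cluster tested. An exact permutation test of 1 cluster with 3 samples a side has a smallest p of 0.1, so none is given. Control brain replicate 5 stood apart. Its summed level of 97 mitochondrially named clusters was 43349 CPM, against 21255 and 20244 CPM in the other control brains, and it was the lowest of the 3 controls for 38 of the 61 members tested in brain (62.3%, beside 42.95% of all clusters tested). Values without it are given beside the members' brain calls for the exposures.

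The members bore 45 product names, 19 of them shared by more than 1 cluster, and fell into 11 classes by name. The Shaker, Shab, Shal and Shaw potassium channels were the most numerous with 17 clusters, followed by 12 subfamily K channels, which have tandem pores and carry leak current, and 11 calcium- or sodium-activated potassium channels. There were 7 clusters of the EAG/ERG family, 4 of the KCNQ family and 3 inward rectifiers. Hyperpolarization-activated and cyclic nucleotide-gated channels gave 6 clusters, sodium channels 5, calcium channel pore subunits 3, calcium channel accessory subunits 6 and the sodium leak channel 1. The Pfam ion transport domain, which the rule did not use, was annotated on 55 of the 75, including all 5 sodium and all 3 calcium pore clusters and none of the accessory subunits. The BTB/POZ domain, through which Shaker-type subunits assemble into tetramers, was annotated on 12 clusters, all among the 17 of the Shaker group. The best match was a Drosophila melanogaster protein for 20 members and a human one for 17. Cluster lengths ran from 418 to 12793 bases with a median of 3078. Enough reads for a test were present in both tissues for 33 members, in brain alone for 28, in liver alone for 2 and in neither for 12.

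Channel clusters were mostly brain transcripts. The summed level of all 75 members was 775 ± 59.7 CPM in control brain and 369 ± 11.03 CPM in control liver, and 48 of the 63 members tested were higher in brain while 2 were higher in liver. That is 79.4% called, against percent_called values of 49.7 for all clusters in either direction, 23.5 for higher in brain and 26.2 for lower. The median member difference was 2.76 on the log2 scale, also with the 4 members at 0 in every control liver set to their bounds, while the median over all clusters was 0.00. Of the members, 28 had enough reads for a test in brain alone and 2 in liver alone. They entered through the tissue where they are high, so the filter partly sets the share called, the median and the class counts below. The 33 members with enough reads in both tissues were not counted apart. Without control brain replicate 5, 54 members were called, and the share of all clusters called in that fit is not given here. Bulk RNA cannot tell more cells of a type from more RNA per cell. Clusters of the neuron marker list were mostly higher in brain, 19 of 32 being called higher and 6 lower. The list was matched by words in names, and those lower include Syntaxin-18 and a synaptobrevin-binding protein, whose names do not mark neurons. Tyramine beta-hydroxylase (Cluster-2499.89100) was the furthest the other way, at 0.120 ± 0.207 CPM in control brain and 68.6 ± 48.9 CPM in control liver (log2 -9.03). Synaptotagmin-1 (Cluster-2499.105793), the calcium sensor of transmitter release, stood at 191 ± 67.8 against 16.3 ± 1.14 CPM. The summed neuron list was nevertheless lower in brain (900 to 1016 CPM) than in liver (1232 to 1330 CPM), and 2 of its clusters, named Neuroendocrine convertase 1, a prohormone-cutting protease, were at 622 and 241 CPM in liver against 87.2 and 49.4 CPM in brain. Without the convertases the sums were 575 to 766 CPM in brain and 379 to 455 CPM in liver. Muscle markers were called higher in brain for 22 of 26 tested clusters, with sums of 9332 to 17904 CPM against 605 to 721 CPM. The part of each marker list in the channel difference was not tested.

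The clusters named as sodium channels, whose para type carries the rising phase of the action potential, showed the widest gap between the tissues. Their class sum was 30.5 ± 12.2 CPM in control brain and 1.31 ± 0.336 CPM in control liver, and all 4 tested clusters were called, with a median log2 difference of 5.21. None of the 4 had enough reads for a test in liver, so they entered through brain, and the filter partly sets this gap. The cluster named para (Cluster-2499.118800), after the Drosophila action potential sodium channel, held 13.1, 6.68 and 7.12 CPM in control brains and 0.0875, 0.0850 and 0.0955 CPM in control livers. The groups lay far apart, with a log2 fold change of 6.53 ± 0.54 (edgeR adjusted p = 4.09e-10), or 6.71 without control brain replicate 5. A second para cluster (Cluster-2499.36487) held 22.5, 10.4 and 12.3 CPM against 0.613, 0.255 and 0.477 CPM, a difference of 5.05 ± 0.52. In both, control brain replicate 4 was about as high as the other control brains together. Sodium channel protein 60E (Cluster-2499.128525) differed by 5.37 ± 0.86 and Sodium channel protein 1 brain (Cluster-2499.127194) by 3.34 ± 0.58. The sodium leak channel NALCN (Cluster-2499.68479), which passes a steady depolarizing sodium current, was higher by 1.82 ± 0.23 (23.9 ± 6.15 against 6.75 ± 1.62 CPM).

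Calcium channels followed. The type A pore subunit (Cluster-2499.96464), which belongs to the presynaptic family of calcium channels, stood at 10.7, 12.5 and 10.1 CPM in control brains and 0.525, 1.02 and 0.286 CPM in control livers, a difference of 4.15 ± 0.43 (edgeR adjusted p = 2.18e-08). The type D subunit (Cluster-2499.96613), of the L-type family of muscle, nerve and endocrine cells, had a smaller gap of 2.05 ± 0.21 and kept a clear level in liver (25.8 ± 1.79 against 6.22 ± 0.502 CPM). The alpha-2/delta subunits, extracellular proteins that help pores reach the membrane, were higher in brain by 2.71 ± 0.30 (Cluster-2499.52165) and 1.49 ± 0.19 (Cluster-2499.57862). A gamma-5 subunit (Cluster-2499.30952) had no count in any control liver and 1.32 CPM in control brain, at least 14.8-fold higher against a floor of 3 counts over the 3 livers (0.0891 CPM), which covers counting error only.

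Among the voltage-gated potassium channels 9 of 14 tested Shaker-group clusters were called, all higher in brain, with a class median of 2.79. Shab (Cluster-2499.111306), the delayed rectifier of the group, held 14.6, 10.2 and 15.4 CPM in control brains and 1.66, 1.02 and 1.91 CPM in control livers, a difference of 3.13 ± 0.30 (edgeR adjusted p = 6.78e-09), or 3.30 without control brain replicate 5. Shal (Cluster-2499.35246), which gives fast inactivating current near the resting potential, differed by 3.05 ± 0.30, Shaw (Cluster-2499.123088) by 4.36 ± 0.38 and Shaker (Cluster-2499.130823) by 3.68 ± 0.54. Another Shaw cluster (Cluster-2499.28922) had no count in control livers and was at least 12.9-fold higher in brain (1.15 CPM). The EAG/ERG clusters were called in 4 of 4 tests, from 5.44 ± 0.62 for subfamily H member 8 (Cluster-2499.126009) down to 1.13 ± 0.33 for member 2 (Cluster-2499.119309), the ERG channel that repolarizes the heart in vertebrates. KCNQ clusters, slow channels that damp repetitive firing, were called in 3 of 3, with 4.02 ± 0.50 for member 5 (Cluster-2499.34266) and 2.88 ± 0.42 for member 1 (Cluster-2499.109128). Of all clusters 23.5% were called higher in brain. Some of these members, such as subfamily H member 8, had enough reads for a test in brain alone, so the filter partly sets the class counts.

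The calcium- and sodium-activated potassium channels went both ways, with 6 called higher in brain and 2 called lower among 11 tested. Of all clusters 23.5% were higher and 26.2% lower. Slowpoke (Cluster-2499.113506), a large conductance channel opened by voltage and calcium together, was higher by 2.76 ± 0.26 and slo-1 (Cluster-2499.79223), of the same family, by 3.47 ± 0.40. Both members higher in liver were small conductance channels, which respond to calcium alone. Small conductance channel protein 3 (Cluster-2499.72123) held 17.2, 15.7 and 17.0 CPM in control livers and 5.10, 2.71 and 7.07 CPM in control brains, a log2 fold change of -1.74 ± 0.26 (edgeR adjusted p = 6.47e-06; -1.44 without control brain replicate 5). A cluster named small conductance calcium-activated potassium channel protein (Cluster-2499.51665) was nearly a liver transcript, at 3.68, 0.680 and 1.05 CPM against 0.0526, 0 and 0.0512 CPM, a log2 fold change of -5.39 ± 1.10. Its 3 control livers differed widely among themselves. A different cluster of that same name (Cluster-2499.53283) went the opposite way, higher in brain by 3.18 ± 0.56. Of the sodium-activated channels, subfamily T member 2 (Cluster-2499.97605) was higher in brain by 1.52 ± 0.23, while a second cluster of that name (Cluster-2499.73573) differed by 0.48 ± 0.33 and was not called (edgeR adjusted p = 0.231).

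The subfamily K, inward rectifier and cyclic nucleotide-gated classes ranged from brain transcripts to members at like levels in both tissues. Subfamily K member 1 (Cluster-2499.76891) was higher in brain by 1.21 ± 0.20 (121 ± 45.2 against 52.4 ± 6.41 CPM). Of 11 tested subfamily K clusters 8 were called, all higher, where 23.5% of all clusters were. A second member 1 cluster (Cluster-2499.76892) differed by 0.27 and was not called (edgeR adjusted p = 0.387), but it was called without control brain replicate 5 (0.59, edgeR adjusted p = 0.0214). Without that library the first cluster differed by 0.87. Members 9 (Cluster-2499.24210) and 10 (Cluster-2499.26922) had no count in control livers and were at least 8.22-fold and 6.77-fold higher in brain. G protein-activated inward rectifier channel 4 (Cluster-2499.104078), a type opened by neurotransmitter receptors, was higher by 1.16 ± 0.21. Inward rectifier channel 2 (Cluster-2499.82624) was not called at -0.23 ± 0.41, and its direction rested on control brain replicate 5, which held 1.44 CPM where the others held 10.7 and 10.9, for it became 0.26 without that library. Hyperpolarization-activated channel 2 (Cluster-2499.105327), the pacemaker type, was higher by 3.88 ± 0.35 (18.0 ± 4.84 against 1.20 ± 0.517 CPM). Cyclic nucleotide-gated channel beta-1 (Cluster-2499.88717), a sensory transduction subunit in vertebrates, had 243 ± 44.7 CPM in brain and 180 ± 10.4 CPM in liver. That gap of 0.44 ± 0.15 was called (edgeR adjusted p = 0.0161), but not without control brain replicate 5 (0.28, edgeR adjusted p = 0.0838) or control liver replicate 3 (0.40, edgeR adjusted p = 0.0605), nor with only the 6 samples compared (0.43, edgeR adjusted p = 0.140). On a per-length scale subfamily K member 1 at 20.7 CPM per kb and the beta-1 cluster at 19.0 CPM per kb had the highest mean levels of all members in control brain. In control liver the beta-1 cluster was at 14.1, subfamily K member 1 at 8.92 and small conductance channel protein 3 at 7.73 CPM per kb.

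**Figure D1:**
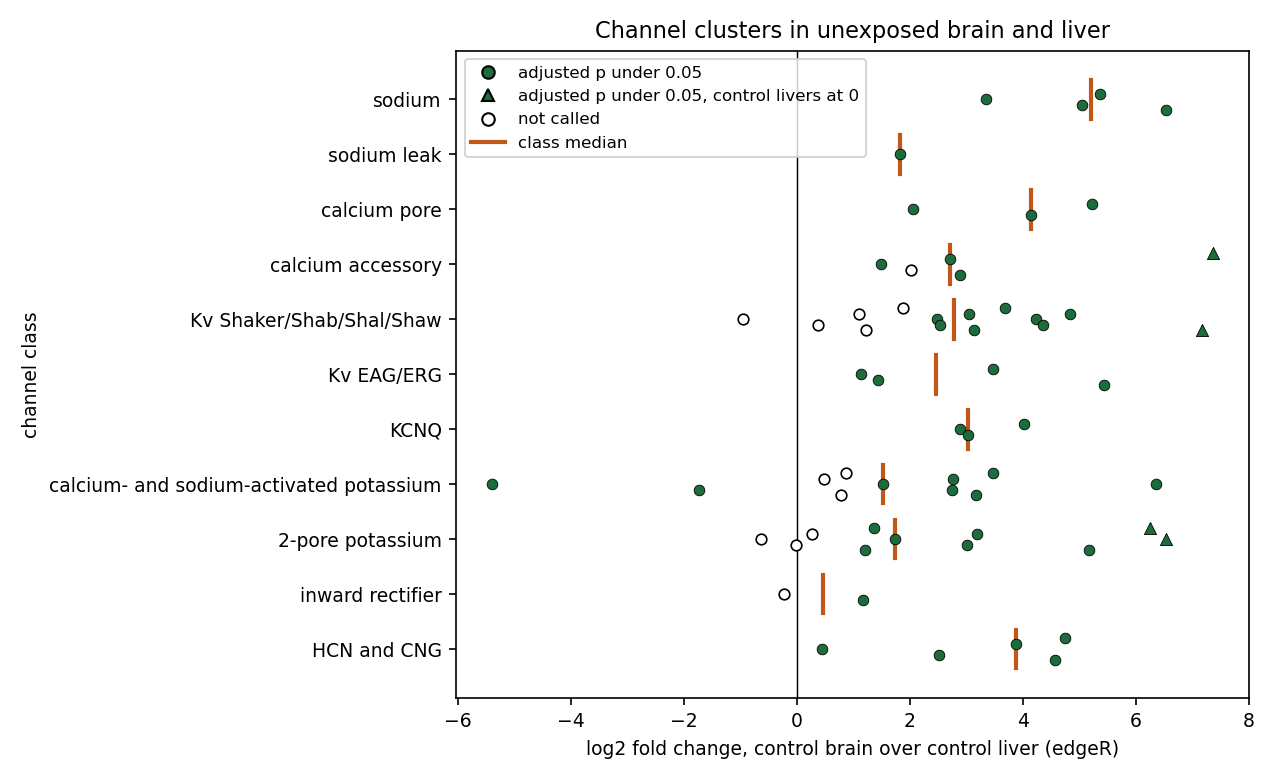
Log2 fold change of each tested channel cluster, control brain over control liver (x axis), by channel class (y axis), from edgeR with 3 samples a group. Filled circles were called at an adjusted p under 0.05, triangles were called with the control livers at 0, open circles were not called and bars are class medians. Sodium channels sit furthest to the right with a median of 5.21, and 2 calcium-activated potassium channels lie to the left of 0 among the called clusters. All tested sodium clusters had enough reads for a test in brain alone, so the filter partly sets their position.

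Under polystyrene the sodium channels of the 60E type rose in brain. Of the 61 members tested, 3 rose and none fell, which is 4.92% called against a percent_called of 7.08 in either direction and 4.66 for higher, so the share of members was near the background. Sodium channel protein 1 brain (Cluster-2499.127194) held 6.84, 2.82 and 4.92 CPM in controls and 10.95, 25.3 and 23.2 CPM under polystyrene. The groups did not overlap, and the cluster rose 4.03-fold (log2 2.01 ± 0.34, edgeR adjusted p = 0.00411). Sodium channel protein 60E (Cluster-2499.128525) held 1.79, 1.05 and 1.79 CPM in controls and 3.21, 6.08 and 7.65 CPM under polystyrene. It rose 3.60-fold (log2 1.85 ± 0.37, edgeR adjusted p = 0.00869), again with no overlap. Both clusters shared 1 best NR match, a sodium channel of the snail Pomacea canaliculata, and the KO name DSC1/NaCP60E, so they may belong to 1 gene; in Drosophila this name stands for a sodium channel relative distinct from para. Both calls held whichever of the 12 brain libraries was left out. Without control brain replicate 5 the changes were 1.76 (edgeR adjusted p = 0.0110) and 1.67 (edgeR adjusted p = 0.0238).

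The para clusters, whose KO name was a different one, gave no call under polystyrene. Cluster-2499.36487 held 22.4, 21.0 and 22.8 CPM and Cluster-2499.118800 held 12.8, 12.8 and 15.4 CPM, values that the highest control brain, replicate 4 at 22.5 and 13.1 CPM, matched or nearly matched. Their log2 fold changes were 0.53 (edgeR adjusted p = 0.353) and 0.59 (edgeR adjusted p = 0.234). The sodium class sum was 61.2 ± 10.4 CPM under polystyrene against 30.5 ± 12.2 CPM in controls.

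The third call was the sodium-activated potassium channel, subfamily T member 2 (Cluster-2499.73573), a channel that opens as sodium builds up inside a firing neuron. It held 9.73, 7.51 and 6.20 CPM in controls and 14.5, 16.4 and 21.4 CPM under polystyrene, without overlap. It rose 2.20-fold (log2 1.14 ± 0.27, edgeR adjusted p = 0.0232), a call that was lost without control brain replicate 5 (edgeR adjusted p = 0.0532), control brain replicate 6 (0.0761), polystyrene brain replicate 5 (0.0561) or polystyrene brain replicate 6 (0.0986). Other sodium- and calcium-activated channels had positive values short of the threshold: slo-1 (Cluster-2499.79223) at 0.65 (edgeR adjusted p = 0.0573), subfamily T member 1 (Cluster-2499.35382) at 0.98 (edgeR adjusted p = 0.0653) and the other T member 2 cluster (Cluster-2499.97605) at 0.68 (edgeR adjusted p = 0.0818). Both clusters of the type A calcium pore were above control as well, at 1.22 (Cluster-2499.33963) and 0.77 (Cluster-2499.96464), neither called.

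Most members lay above 0 under polystyrene in brain without reaching the threshold. Their median log2 fold change was 0.36 where that of all clusters was 0.00, and 44 of 61 (72.1%) were above 0, beside 49.6% of all clusters. All 13 tested clusters of the Shaker group lay above 0, with a median of 0.62, and so did all 4 sodium and all 3 calcium pore clusters, while the 3 tested KCNQ clusters lay below 0. At an unadjusted p under 0.05 there were 18 members (29.5%), 17 of them higher, where 22.4% of all clusters passed. Without control brain replicate 5 the lean was smaller, with a member median of 0.23 against 0.03 over all clusters, 39 of 61 above 0, and 10 of 13 Shaker-group clusters above 0 with a median of 0.38. Cadmium and combined brains leaned the same way against the same controls. Above 0 were 42 of 61 members (68.9%, median 0.18) and 40 of 61 (65.6%, median 0.17), beside 49.2% and 49.0% of all clusters. Without control brain replicate 5 these were 37 and 36 of 61, with medians of 0.14 and 0.11. In polystyrene brain ciliary markers had the same median as the members, 0.36, with 1 of 79 called higher and sums of 1778 to 2465 CPM against 1273 to 2176 CPM in controls. Of the neuron markers 1 of 31 tested was called, lower, with a median of 0.20. Muscle markers had 2 of 26 called higher and sums of 8762 to 15681 CPM against 9332 to 17904 CPM. Hepatopancreas markers had 3 of 73 and sperm and testis markers 2 of 20 called higher. Blood markers had 0 of 37 called, with a median of -0.41 and sums of 1778 to 4715 CPM against 4260 to 5826 CPM in controls. The part of these cells in the channel values was not tested.

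**Figure D2:**
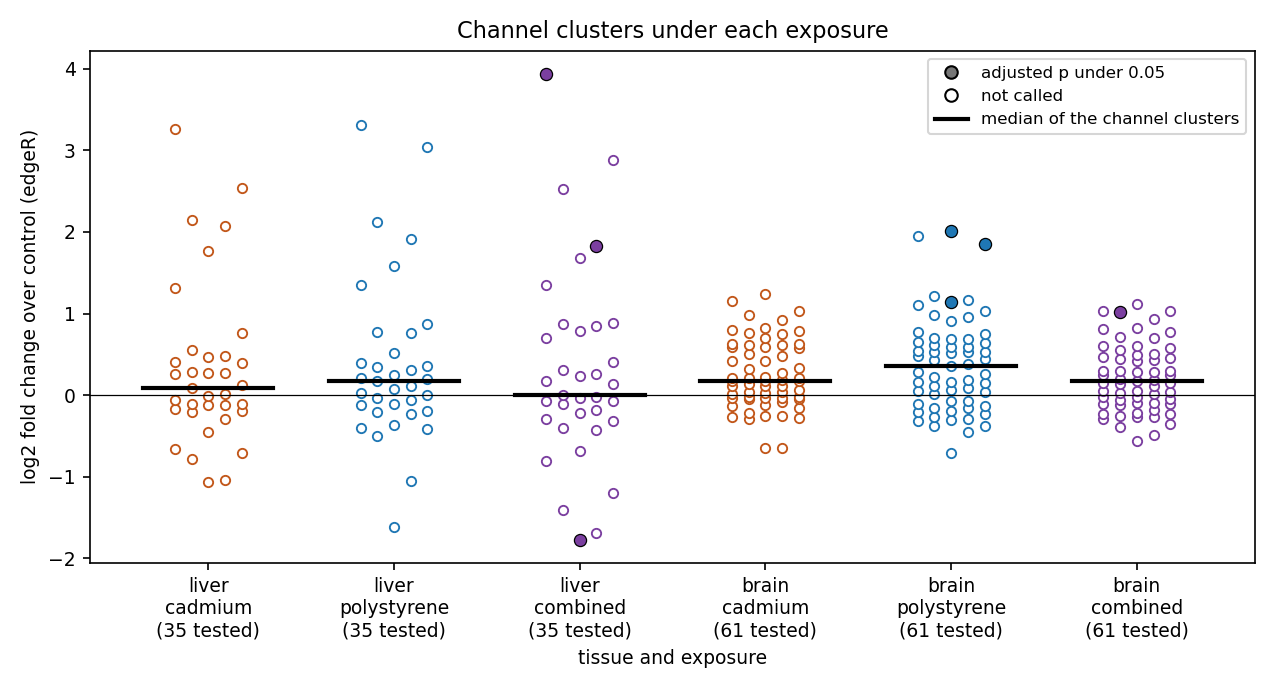
Log2 fold change over control (y axis) of every tested channel cluster for each exposure in liver (35 clusters) and brain (61 clusters), from edgeR. Filled points were called at an adjusted p under 0.05 and bars are medians. Polystyrene brains had the highest median, 0.36, and 3 called clusters, while cadmium gave no called cluster in either tissue.

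Cadmium alone gave no call among the 61 members in brain (percent_called 4.34 over all clusters), with 10 members at an unadjusted p under 0.05 (16.4%, where 18.4% of all clusters passed), 9 of them higher, and 0 called by DESeq2. The smallest adjusted p was that of Shab (Cluster-2499.111306), which held 22.1, 20.6 and 19.6 CPM against 14.6, 10.2 and 15.4 CPM in controls. Its change of 0.62 ± 0.21 was not called (edgeR adjusted p = 0.116) although the groups did not overlap. The 4 sodium clusters had values from 0.42 to 0.80 and the Shaker group a median of 0.59, with 11 of 13 above 0 (0.29 and 10 of 13 without control brain replicate 5). Sodium channel protein 1 brain held 7.35, 7.53 and 10.0 CPM under cadmium, above every control and below every polystyrene brain.

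Under the combined exposure Shab was the 1 member called in brain, and it rose. That is 1.64% of 61, against a percent_called of 3.92 in either direction and 2.13 for higher. Shab (Cluster-2499.111306), whose current repolarizes neurons and muscle fibres, held 34.9, 26.4 and 21.7 CPM against 14.6, 10.2 and 15.4 CPM in controls, 2.03-fold higher with no overlap (log2 1.02 ± 0.21, edgeR adjusted p = 0.0131). The call held whichever of the 12 brain libraries was left out, with 0.88 (edgeR adjusted p = 0.0287) without control brain replicate 5, but it was lost in a fit of only the 6 samples compared (edgeR adjusted p = 0.0897). Polystyrene brains held 19.8, 24.1 and 21.5 CPM, so in each exposed group all samples lay above all controls, and the exposures were read against the same 3 controls. Muscle markers moved beside this result: their sum was 19961 to 36156 CPM in combined brains against 9332 to 17904 CPM in controls, 11202 to 18250 CPM under cadmium and 8762 to 15681 CPM under polystyrene, and 2 of 26 tested muscle clusters were called higher. The part of muscle RNA in the Shab change was not tested. The same brains held 16.1, 13.8 and 12.9 CPM of slo-1 (Cluster-2499.79223) against 8.73, 7.24 and 9.94 CPM in controls, a change of 0.70 that was not called (edgeR adjusted p = 0.0603).

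The 60E-type sodium channel clusters that were high under polystyrene were not high when cadmium was present as well. In combined brains Sodium channel protein 1 brain held 8.09, 5.91 and 8.57 CPM and Sodium channel protein 60E held 1.79, 1.39 and 1.94 CPM, changes of 0.61 (edgeR adjusted p = 0.393) and 0.12 (edgeR adjusted p = 0.922) from control. Set directly against polystyrene brains, 3 of 61 members were called, all lower, which is 4.92% against a percent_called of 3.51 in either direction and 2.26 for lower. Sodium channel protein 60E (Cluster-2499.128525) was lower by 3.32-fold (log2 -1.73 ± 0.36, edgeR adjusted p = 0.0182) and Sodium channel protein 1 brain (Cluster-2499.127194) by 2.65-fold (log2 -1.40 ± 0.34, edgeR adjusted p = 0.0348). In both the groups did not overlap. Without control brain replicate 5, which this comparison does not use directly, the values were -1.75 and -1.42, both called. Ciliary markers moved with this comparison: 6 of 79 tested were lower and 0 higher, with a median of -0.53, and their sum was 1441 to 1653 CPM in combined against 1778 to 2465 CPM in polystyrene brains. Muscle sums were higher in the combined brains, as given above, with 1 of 26 clusters called higher. The part of these cells in the channel calls was not tested.

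The third was the more abundant subfamily T member 2 cluster (Cluster-2499.97605), with 13.2, 18.1 and 23.8 CPM in combined brains against 37.1, 31.9 and 37.0 CPM in polystyrene brains and 27.1, 21.3 and 16.6 CPM in controls. It was lower than under polystyrene by 1.93-fold (log2 -0.95 ± 0.22, edgeR adjusted p = 0.0331), and the combined and control brains overlapped (-0.96 without control brain replicate 5, called). These calls depended on single libraries. The 60E call was lost without polystyrene brain replicate 5 (edgeR adjusted p = 0.0685), polystyrene brain replicate 6 (0.1001) or combined brain replicate 5 (0.0870), and the 1 brain call was lost without any of those 3 libraries (up to 0.142) or without combined brain replicates 4 (0.0777) or 6 (0.0640). The T member 2 call was lost in 6 of 12 omissions (edgeR adjusted p up to 0.115): each polystyrene brain, combined brain replicates 4 and 5, and cadmium brain replicate 4. Without polystyrene brain replicate 5 or 6, or combined brain replicate 5, no member was called. Against cadmium brains no member of the combined group was called (percent_called 2.79), with 5 at an unadjusted p under 0.05 (14.6% of all clusters passed) and 1 called by DESeq2. DESeq2's share over all clusters is not given here. The smallest edgeR adjusted p was 0.0698 for slowpoke (Cluster-2499.113506), at 28.6, 26.6 and 17.6 CPM against 16.2, 14.4 and 12.6 CPM.

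**Figure D3:**
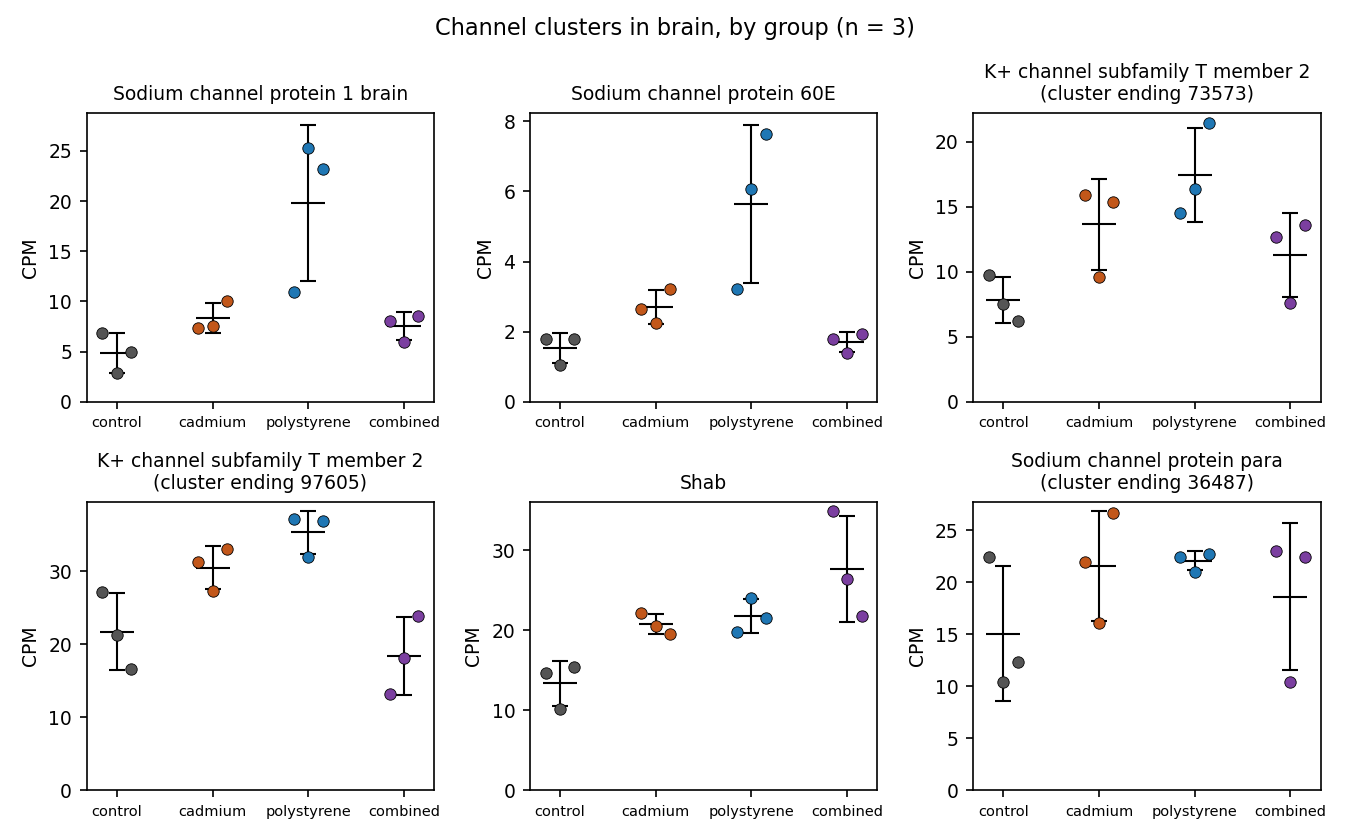
CPM (y axis, from 0) of 6 channel clusters in each brain sample of the 4 groups, with mean and SD (n = 3). The sodium channels 1 brain and 60E are high in polystyrene brains, up to 25.3 and 7.65 CPM, and not in combined brains, while Shab is highest in combined brains at 34.9, 26.4 and 21.7 CPM and para overlaps across groups.

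In liver the small conductance channel cluster rose, and the T member 2 cluster that rose in polystyrene brain fell. Of 35 members tested under the combined exposure, 2 rose and 1 fell, 8.57% against a percent_called of 6.24 in either direction, 2.86 for higher and 3.39 for lower. The small conductance calcium-activated potassium channel cluster (Cluster-2499.51665), a liver transcript as described above, held 3.68, 0.680 and 1.05 CPM in controls and 44.6, 11.99 and 28.1 CPM in combined livers. The groups did not overlap, and it rose 15.3-fold (log2 3.93 ± 0.84, edgeR adjusted p = 0.0303). Cadmium livers held 15.1, 13.1 and 23.7 CPM and polystyrene livers 26.6, 5.09 and 22.3 CPM, all above the controls they share, but these changes of 3.26 and 3.31 were not called (edgeR adjusted p = 0.0741 and 0.0762). The call for the combined exposure was lost with no filter on low counts (edgeR adjusted p = 0.0556), with only the 6 samples compared (0.0541), or without control liver replicate 2 (edgeR adjusted p = 0.119), control liver replicate 3 (0.101), cadmium liver replicate 1 (0.0517), combined liver replicate 1 (0.0702) or combined liver replicate 3 (0.0755).

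Subfamily T member 2 (Cluster-2499.73573) fell in combined livers, from 3.06, 7.06 and 6.68 CPM in controls to 1.99, 1.73 and 1.28 CPM, a change of -1.77 ± 0.41 with no overlap (edgeR adjusted p = 0.0220). The call was lost without control liver replicate 2 (edgeR adjusted p = 0.0934), control liver replicate 3 (0.0668), combined liver replicate 2 (0.0570) or combined liver replicate 3 (0.0797). With both clusters of that name summed the change was -0.85 and was not called (edgeR adjusted p = 0.0518). Shaw (Cluster-2499.123088) was called at 1.83 ± 0.51 (0.263, 0.425 and 0.286 CPM in controls, 1.08, 0.999 and 1.54 CPM in combined livers, edgeR adjusted p = 0.0475), and the call was lost in each of the 12 omissions (edgeR adjusted p from 0.0520 to 0.152), with no filter (0.165) and with only the 6 samples compared (0.101). The control livers of this Shaw cluster lay below the filter on low counts, so it entered the test through exposed livers. The filter therefore partly sets this call and the share of members called. Without control liver replicate 2 or 3 no member was called. Several members lay just past the threshold. The sodium leak channel NALCN (Cluster-2499.68479) was at 0.79 (edgeR adjusted p = 0.0650), egl-36 (Cluster-2499.98289), a Shaw-type channel named from Caenorhabditis elegans, at 1.68 (edgeR adjusted p = 0.0627), and eag (Cluster-2499.110260) at -1.41 (edgeR adjusted p = 0.0510). Beside these results the ciliary marker sum was 355 to 399 CPM in combined livers against 594 to 1507 CPM in controls, with 21 of 73 tested clusters lower and 2 higher, and the muscle sum was 1014 to 1087 CPM against 605 to 721 CPM, with 9 of 22 higher. Blood markers summed to 5502 to 7671 CPM against 8718 to 12162 CPM, with 5 of 34 lower, and 3 of 18 sperm and testis markers were lower. The part of these cells in the channel changes was not tested.

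Neither single exposure gave a call in liver. Under cadmium 0 of 35 members were called (percent_called 3.46), with 7 at an unadjusted p under 0.05 (18.2% of all clusters passed) and 2 called by DESeq2, and under polystyrene 0 of 35 (percent_called 3.14), with 10 at an unadjusted p under 0.05 (28.6%, against 16.8% of all clusters) and 5 called by DESeq2. The share of all clusters called by DESeq2 is not given here. Subfamily K member 16 (Cluster-2499.92604), a background potassium channel, was above all controls in all 9 exposed livers. It held 8.66, 9.01 and 11.1 CPM in controls, 14.4, 16.9 and 17.3 CPM under cadmium and 15.1, 14.0 and 20.05 CPM under polystyrene. Its changes of 0.76 and 0.77, and of 0.70 under the combined exposure, shared their controls and narrowly missed the threshold (edgeR adjusted p = 0.0661, 0.0673 and 0.0662). Polystyrene livers held 2.30, 4.16 and 4.71 CPM of egl-36 (Cluster-2499.98289) against 1.40, 0.595 and 0.955 CPM in controls, the closest miss at 1.92 (edgeR adjusted p = 0.0530). A second cluster named Sodium channel protein 1 brain (Cluster-2499.142481), too rare to be tested, held 9.94 and 4.57 CPM in polystyrene livers 2 and 3, 0.247 CPM in replicate 1 and at most 0.668 CPM in any control liver.

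Between exposures in liver, eag (Cluster-2499.110260), a voltage-gated potassium channel first named from a leg-shaking fly mutant, was lower in combined than in cadmium livers (0.662, 0.727 and 0.768 against 2.28, 2.87 and 1.70 CPM, log2 -1.68 ± 0.40, edgeR adjusted p = 0.0396). It was the 1 member called of 35 (2.86%, against a percent_called of 2.5 in either direction and 1.38 for lower), and the call was lost in 9 of 12 omissions (edgeR adjusted p up to 0.145), the exceptions being control liver replicate 1, cadmium liver replicate 3 and polystyrene liver replicate 1. It was also lost with no filter (edgeR adjusted p = 0.0676) and with only the 6 samples compared (0.102). Against polystyrene livers no member of the combined group was called (percent_called 1.32), with 4 at an unadjusted p under 0.05 (14.4% of all clusters passed) and 0 called by DESeq2.

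**Figure D4:**
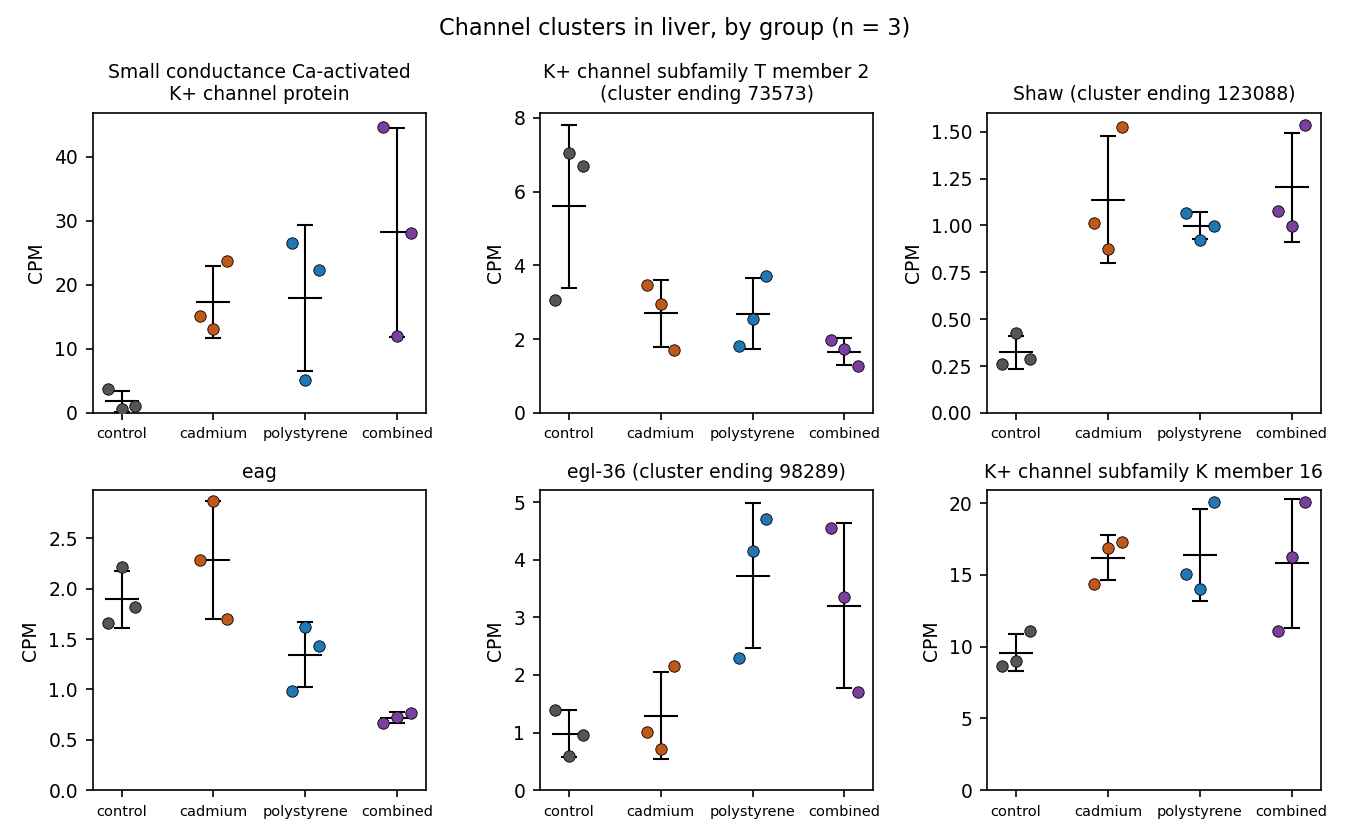
CPM (y axis, from 0) of 6 channel clusters in each liver sample of the 4 groups, with mean and SD (n = 3). The small conductance channel is above its controls in all 9 exposed livers, with the widest spread in combined livers (44.6, 11.99 and 28.1 CPM), and T member 2 falls to between 1.28 and 1.99 CPM in combined livers.

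The T member 2 cluster (Cluster-2499.73573) was the 1 member of 63 whose response was called as different between brain and liver, and it was so for each exposure. The percent_called values were 2.23 for cadmium, 2.84 for polystyrene and 1.98 for the combined exposure, or 1.41, 1.72 and 1.2 for a higher response in brain, and 1 of 63 members is 1.59%. Its level rose in brain from 9.73, 7.51 and 6.20 CPM to 14.5, 16.4 and 21.4 CPM under polystyrene, while liver went from 3.06, 7.06 and 6.68 CPM to 1.81, 2.54 and 3.71 CPM. The tissue changes, each in its own fit, were 0.79 and -1.04 for cadmium, 1.14 and -1.06 for polystyrene and 0.50 and -1.77 for the combined exposure in brain and liver, of which polystyrene in brain and the combined exposure in liver were called. The difference itself was 1.85 ± 0.47 for cadmium (edgeR adjusted p = 0.0355), 2.21 ± 0.47 for polystyrene (edgeR adjusted p = 0.0102) and 2.27 ± 0.48 for the combined exposure (edgeR adjusted p = 0.0131). These 3 tests share the control brains and control livers. Without control brain replicate 5 the differences were 1.82 (edgeR adjusted p = 0.0676), 2.18 (0.0215) and 2.25 (0.0276). Ciliary markers also responded more upward in brain than in liver, with medians of 0.92, 0.78 and 1.37 and 2, 0 and 8 of 80 called higher for cadmium, polystyrene and the combined exposure, and their part was not tested. The polystyrene and combined calls held in all 24 omissions, and the cadmium call was lost in 8 (edgeR adjusted p up to 0.106): control liver replicates 2 and 3, control brain replicates 5 and 6, cadmium liver replicates 2 and 3, and cadmium brain replicates 4 and 6. The more abundant cluster of the same name (Cluster-2499.97605) was at 0.68 in polystyrene brain and -0.42 in polystyrene liver, and was called in neither.

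**Figure D5:**
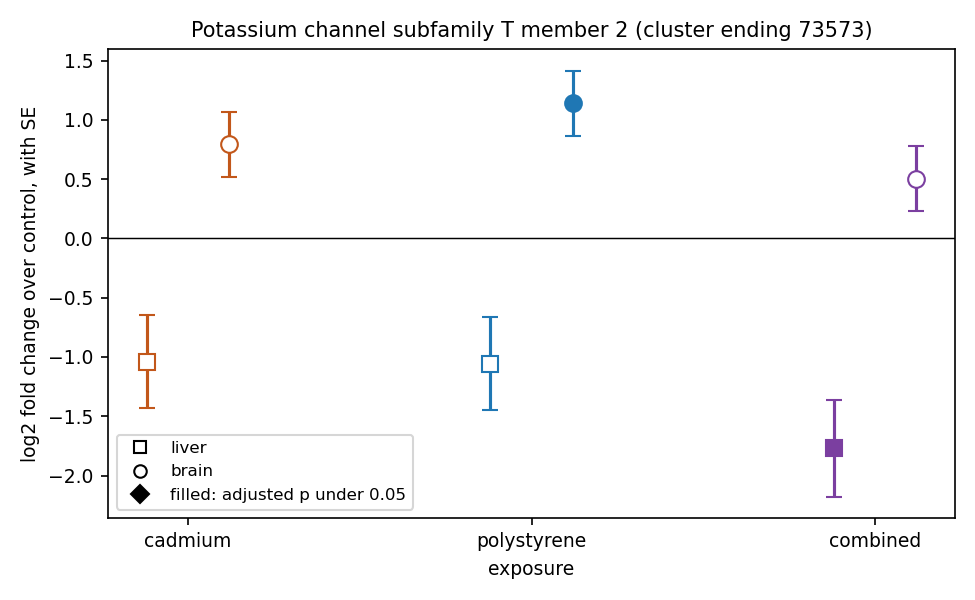
Log2 fold change over control with its standard error (y axis) of the T member 2 cluster under each exposure, squares for liver and circles for brain, from edgeR with 3 samples a group. Filled symbols were called at an adjusted p under 0.05. Brain values lie above 0 and liver values below 0 for all 3 exposures, with 1.14 in polystyrene brain and -1.77 in combined liver called.

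The genes that work beside these channels were counted from name lists. Channel partners, such as calmodulin-dependent kinase II, ankyrins and Kv beta subunits, had 0 of 24 tested clusters called against control in any exposed brain. In liver 2 of 24 fell under cadmium, calmodulin-dependent kinase II delta (Cluster-2499.86974) by 0.63 and KCTD21 (Cluster-2499.66503) by 5.76 on the log2 scale, and none was called under the other exposures. Of the sodium pump, exchanger and calcium pump clusters, 2 of 21 tested rose in polystyrene brain. Sodium/calcium exchanger 3 (Cluster-2499.46217), which trades sodium for calcium across the membrane, went from 5.36 ± 0.855 to 10.2 ± 2.03 CPM (log2 0.91 ± 0.24, edgeR adjusted p = 0.0324). Whether this call holds without control brain replicate 5 is not given here. In liver the plasma membrane calcium pump ATPase 4 (Cluster-2499.98562), which expels calcium, fell in every exposure, from 57.7 ± 0.851 CPM in controls to 32.1 ± 5.75 under cadmium, 30.9 ± 2.81 under polystyrene and 26.5 ± 3.94 CPM under both. The changes were -0.84 (edgeR adjusted p = 0.00724), -0.90 (edgeR adjusted p = 0.00480) and -1.15 (edgeR adjusted p = 0.00105) against the same controls. The T-type calcium channel alpha-1G (Cluster-2499.76404), a low-voltage pore that the name rule does not reach, was at 25.7 ± 5.39 CPM in control brain and 7.21 ± 0.310 CPM in control liver and was called in no exposure. Of 129 tested clusters of other cation channels, 22 rose and 2 fell in polystyrene brain, where 4.66% of all clusters rose, and 2 were higher and 17 lower in combined than in polystyrene brain, where 2.26% of all clusters were lower. Most of the 22 and most of the 17 were inositol trisphosphate receptor clusters, described below, which may be pieces of fewer genes.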

How the data were processed

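RNA sequencing of 24 samples had been made from total RNA with an Rneasy mini plus kit and a SMARTER mRNA-Seq library kit, per the labels' protocols. The deposited table holds expected counts (reads estimated per gene cluster, not all whole), not scaled between samples, per the file headers and values. How the transcriptome was assembled and the reads aligned and counted is not given in the sources used here; mm10, listed in the submitters' processing notes, is a mouse build and no coordinates were used.

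Counts were rounded and fitted with edgeR 4.0.16 (R 4.3.3): TMM scaling, filterByExpr at 10 counts (55762 clusters kept in liver, 64046 in brain, 78809 over both), 1 mean per group over the 12 samples of a tissue or all 24, quasi-likelihood test with robust dispersions, p adjusted by Benjamini-Hochberg over all clusters and called under 0.05. The 14 comparisons were each exposure against control, the combined against each single one, control brain against control liver, and each response of brain against liver. Named members were up to 6 called per comparison and direction (10 for the tissues) by adjusted p, plus per class the 2 most abundant in brain and the 1 in liver. Other members named (slo-1, subfamily T member 1, Shaker, subfamily K members 9, 10 and 16, gamma-5, further Shaw, type A and small conductance clusters) were chosen after their values were seen. The name rule used no expression value, but members and lists were chosen with earlier results of these data known. Alternatives were no filter, a filter of at least 1 CPM in 3 samples, the size factors and the Wald test of DESeq2 1.42.0, a replicate block, only the 6 samples compared, omission of each sample and, chosen after seeing the data, members summed by product name. A left-out sample leaves a group of fewer samples, and the spread is then pooled over the groups. The procedure was tested on simulated data. No sequences are printed, since no snail sequence was used here.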

Additional observations from a re-analysis of the deposited data

Results flagged for a closer look

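Potassium channel subfamily T member 2 (Cluster-2499.73573) drew attention because its response differed between brain and liver in the test of the difference itself. The log2 difference, brain response minus liver response, was 1.85 for cadmium (edgeR adjusted p = 0.0355), 2.21 for polystyrene (edgeR adjusted p = 0.0102) and 2.27 for the combined exposure (edgeR adjusted p = 0.0131), from 3 samples a group and shared controls. With the T member 2 clusters summed, the polystyrene difference was 1.49 and called, and the others were not.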

How the results depend on the processing

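Counts of members called moved as follows, the cause not being tested unless the setting names it. In this section the share of all clusters called under each setting is not given. A higher or lower count therefore cannot be told from a setting that calls more or fewer clusters of every kind. With no filter on low counts they were 2 (cadmium liver), 4 (polystyrene liver), 7 (combined liver), 1 (combined against polystyrene liver), 2 (cadmium brain), 6 (polystyrene brain), 1 (combined against cadmium brain) and 4 and 3 for the polystyrene and combined responses between tissues. DESeq2's Wald test gave 2, 5 and 8 for cadmium, polystyrene and combined liver, 7 and 3 for polystyrene and combined brain, 1 for combined against cadmium brain and 4 for the polystyrene response. Using only the 6 samples compared gave 2, 2 and 1 for the 3 liver exposures, 0 for combined against cadmium liver and 0 for combined brain. Members summed by product name gave 1 for polystyrene liver and 0, 3 and 2 for the cadmium, polystyrene and combined responses, and combined liver had 2 higher calls and no lower one. Of these response calls, 2 were higher and 1 lower in brain for polystyrene, and 0 were higher and 2 lower for the combined exposure. With egl-36 summed over its 3 clusters, it was called in polystyrene liver (2.10, edgeR adjusted p = 0.0168) and combined liver (1.91, edgeR adjusted p = 0.0199).

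Replicate numbers showed no clear pairing of the samples, which weak correlations cannot exclude. Correlations of same-numbered samples' deviations ran from -0.106 to 0.122 in liver and from -0.152 to 0.167 in brain, and 4 and 6 of 12 samples correlated best with their own number. In brain their mean was 0.020, against -0.011 for samples of other numbers. With the replicate block the counts were 2 and 2 for cadmium and polystyrene liver, 0 for combined against cadmium liver, 1 for combined against polystyrene brain and 0 for the cadmium response. The block ended 6 calls of named members: Shaw in combined liver, eag against cadmium liver, T member 2 (Cluster-2499.97605) and 1 brain against polystyrene brain, the T member 2 cadmium response and beta-1 between tissues (edgeR adjusted p from 0.0519 to 0.132).

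Leaving out 1 sample at a time, counts ranged from 0 to 1 (cadmium liver), 0 to 3 (polystyrene liver), 0 to 3 (combined liver), 0 to 2 and 0 to 1 (combined liver against cadmium and polystyrene), 0 to 1 (cadmium brain), 2 to 5 (polystyrene brain), 1 to 1 (combined brain), 0 to 1 and 0 to 3 (combined brain against cadmium and polystyrene), 48 to 54 (control tissues), 0 to 1, 1 to 2 and 1 to 2 (cadmium, polystyrene and combined responses). Polystyrene brain reached 5 without combined brain replicate 4, and polystyrene liver 3 without combined liver replicate 1. Of the named results, 58 calls were lost and 1 direction reversed over the omissions, that of Inward rectifier potassium channel 2 between the control tissues (0.26 without control brain replicate 5, from -0.57 without control brain replicate 6). DESeq2 size factors moved the median of all clusters by at most 0.025 on the log2 scale in the 14 comparisons.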

Other observations

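Inositol trisphosphate receptors, the calcium release channels of the endoplasmic reticulum and no members of the channel set, were picked out after their values were seen. In polystyrene brain 12 of 17 tested clusters rose and none fell, with a median log2 fold change of 1.65, where 4.66% of all clusters rose, and against polystyrene the combined brains had 10 of 17 lower. A type 1 receptor cluster (Cluster-2499.81204) held 13.7, 8.67 and 7.84 CPM in control brains, 42.1, 41.1 and 57.3 CPM under polystyrene and 10.7, 11.3 and 12.2 CPM under both. It rose by 2.20 ± 0.26 (edgeR adjusted p = 0.000460) and was lower in combined than in polystyrene brain by 2.04 on the log2 scale (edgeR adjusted p = 0.000930), and neither call was lost in 12 omissions. In cadmium brain, where this cluster held 29.5, 22.3 and 15.9 CPM, 4 of the 17 rose. In combined brain against control, and in the 15 clusters tested in liver under any exposure, none was called.

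Of the transient receptor potential channels, cation channels of sensory cells and many other tissues, 8 of 80 tested clusters rose and 2 fell in polystyrene brain, where 4.66% of all clusters rose and 7.08% were called in either direction.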
